A study of Rattus norvegicus with 196 samples.

Results

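The infralimbic cortex (ILC), the ventral area of the rat medial prefrontal cortex, was compared between animals given fluoxetine (FT) and untreated animals (Sham). All samples labelled as ILC entered the comparison: 8 of the 196 samples and 1 of the 25 brain regions analysed here. They form 4 FT and 4 Sham samples, replicates 1, 3, 4 and 5 of each. FT animals were rats aged 2 months at the start that received fluoxetine at 18 mg per kg body weight in their drinking water for 6 weeks, and Sham animals were rats of the same age that received water. All were naive male Long-Evans rats, for which no transgene and no stress model is described, so the comparison concerns unstressed animals. Each sample pooled frozen punches of 10 animals. The spread between samples is therefore a spread between pools, and the p-values measure that spread and not the variation between single animals. By the study's methods, FT and Sham pools that carry the same number shared their processing, and the numbers were used as pairs.

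Fluoxetine blocks the serotonin transporter, which clears serotonin from the synapse. The infralimbic cortex receives serotonergic fibres from the raphe nuclei and sends excitatory projections to the amygdala, the nucleus accumbens shell, the hypothalamus and back to the raphe. It is known for its role in the extinction of fear and in the control of behaviour under stress. Most of its neurons are glutamatergic pyramidal cells, with a smaller population of GABA interneurons. In RNA from whole punches, fewer cells of a type and less RNA per cell cannot be told apart.

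The libraries were of unequal quality, and 2 of the 4 Sham libraries stood apart. Counts on transcripts were 11953849, 7021305, 11603052 and 13501328 in FT replicates 1, 3, 4 and 5, and 12853852, 543403, 16730824 and 13101669 in the Sham replicates of the same numbers. Sham replicate 3 was the shallow one. It had at least 1 count for 8800 transcripts, against 14938 to 19284 in the other 7 libraries, and a single count there equalled 4.89 CPM (counts scaled to 1e+06 effective counts). Of the 13011 transcripts tested, 4465 had no count in Sham replicate 3.

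The second unusual library, Sham replicate 1, had normal depth but low complexity. Its 50 most abundant transcripts took 82.9% of the counts, and Sham replicate 3 (85.8%) and FT replicate 3 (75.9%) were similar. The shares were 42.0% in FT replicate 1 and 25.6% to 32.1% in the 4 libraries of replicates 4 and 5. Only 10 of those 50 transcripts in Sham replicate 1 have a gene name in the sources used here. Of the same 50, 47 were also among the top 50 of the FT replicate 1 library from the cingulate cortex (CGC), a library of a pair left out of the CGC test. Reads that overlapped more than 1 annotated transcript made up 21.8% of the reads in Sham replicate 1 and 0.954% to 6.50% in the other 7 ILC libraries. Pairs 1 and 3 thus each compare libraries that differ in make-up or depth, whereas the libraries of pairs 4 and 5 resembled each other.

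**Figure D1:**
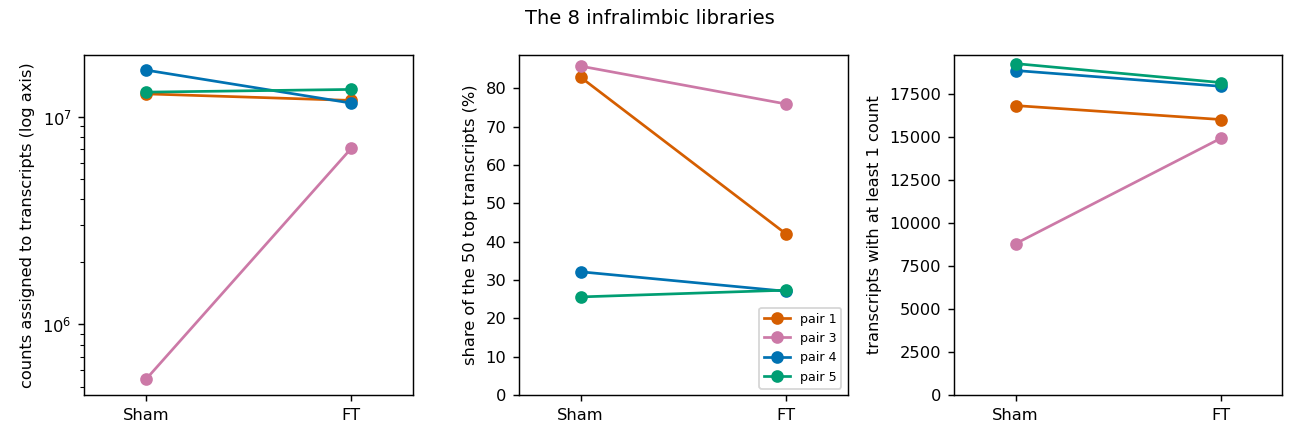
Counts on transcripts (log axis), the share of counts taken by the 50 most abundant transcripts (%) and the number of transcripts with at least 1 count, for the 4 Sham and 4 FT libraries of the infralimbic cortex; a line joins the 2 libraries of a replicate pair. Sham replicate 3 is lowest in depth at 543403 counts, and Sham replicates 1 and 3 and FT replicate 3 have top-50 shares of 75.9% or more.

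Marker genes were read to check the label. Of the 8 excitatory cortical neuron markers with a name, all 8 had a higher mean CPM in ILC than the median of the 25 regions, and ILC ranked from place 2 to place 7. The dendritic transcript Ddn stood at 147 CPM in ILC against a median of 33.6 CPM over regions, and Nrgn, the calmodulin-binding neurogranin of pyramidal cells, at 726 against 175. The means rested largely on replicates 1 and 3: on the scale of all 196 libraries Nrgn had 595 to 1909 CPM in these 4 libraries and 47.3 to 215 CPM in those of replicates 4 and 5. With replicates 4 and 5 of each region alone, a comparison added after seeing the data, Nrgn had 145 CPM in ILC against a median of 48.6 CPM over regions, and all 8 markers were again above the median, at places 3 to 8. Ttr, the transthyretin of choroid plexus, stood at 12.4 CPM in ILC, against a median of 94.9 CPM over regions and 22819 CPM in the region where it was highest. The striatal phosphoprotein gene Ppp1r1b, at 37.9 CPM in ILC, was at the median of regions, with 612 CPM in the core of the nucleus accumbens. Of the 6 striatal markers, Adora2a and Rasd2 were slightly above the median of regions, and Penk, Syndig1l and Drd2 were below it. The dopamine transporter gene Slc6a3 had 0 counts among 87309282 in the 8 libraries, which allows up to 0.0344 CPM by counting error alone.

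The first result was that edgeR with its low-count filter called very few transcripts between FT and Sham over all 4 pairs. Other settings on the same pairs called more, as given below. A differentially expressed gene (DEG) was a transcript whose log2 ratio of FT to Sham (log2FC) was 0.32 or more away from 0, with an adjusted p of at most 0.1. Of 13011 transcripts tested with edgeR, 4 were called (0.0307%), all 4 lower in FT. None of the 4 has a gene name in the sources used here, and 0 of the 1811 named transcripts tested were called. At an unadjusted p under 0.05, 435 transcripts were higher (3.34%) and 500 lower (3.84%), 7.19% of all tested.

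The called transcripts were highest in Sham replicate 1. ENSRNOT00000071687 had 3.32, 3.61, 0.29 and 0.37 CPM in FT replicates 1, 3, 4 and 5, and 641, 58.6, 3.77 and 3.97 CPM in the Sham replicates of the same numbers. The groups did not overlap, and FT over Sham on the log2 scale stood at -7.54 in pair 1, -3.97 in pair 3, -3.23 in pair 4 and -3.05 in pair 5. Its log2FC was -4.87 ± 0.68 (SE, n = 4 pairs, edgeR adjusted p = 0.0352). ENSRNOT00000074406 had 378 CPM in Sham replicate 1 and at most 29.3 CPM in the other 3 Sham samples (log2FC -4.90 ± 0.70, edgeR adjusted p = 0.0352). It was lower in FT in each pair, but its groups overlapped, with 2.63 CPM in FT replicate 3 and 2.15 CPM in Sham replicate 4. The remaining 2 called transcripts had under 1 CPM in all 4 libraries of replicates 4 and 5. Without replicate 1, 3 of the 4 were called. ENSRNOT00000073902 did not pass the low-count filter there or without replicate 3. Without replicate 3 the other 3 were not called, although their log2FC stayed at -5.20 for ENSRNOT00000071687, -5.44 for ENSRNOT00000074406 and -5.34 for ENSRNOT00000072376 (edgeR adjusted p = 0.346, 0.314 and 0.349).

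The number of calls depended strongly on which pairs and which tool were used. DESeq2, the tool of the study's own methods, called 142 of 12304 transcripts with the same thresholds and the same pairing (1.15%), 72 higher and 70 lower, and 100 of the 142 have a gene name. These are 5.53% of the named transcripts it tested, 66 higher (3.65%) and 34 lower (1.88%). Among these 142 calls, 133 had an unadjusted edgeR p under 0.05. Without replicate 1 edgeR called 160 transcripts, 121 higher (0.909%) and 39 lower (0.293%). Replicates 4 and 5 alone gave 583 calls among 13933 transcripts (4.18%), 291 higher and 292 lower, of which 220 and 162 have a gene name. That fit has 1 residual degree of freedom, so its estimate of spread is borrowed mostly from the other transcripts. Replicates 1 and 3 alone gave 27 calls, 26 of them lower.

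**Figure D2:**
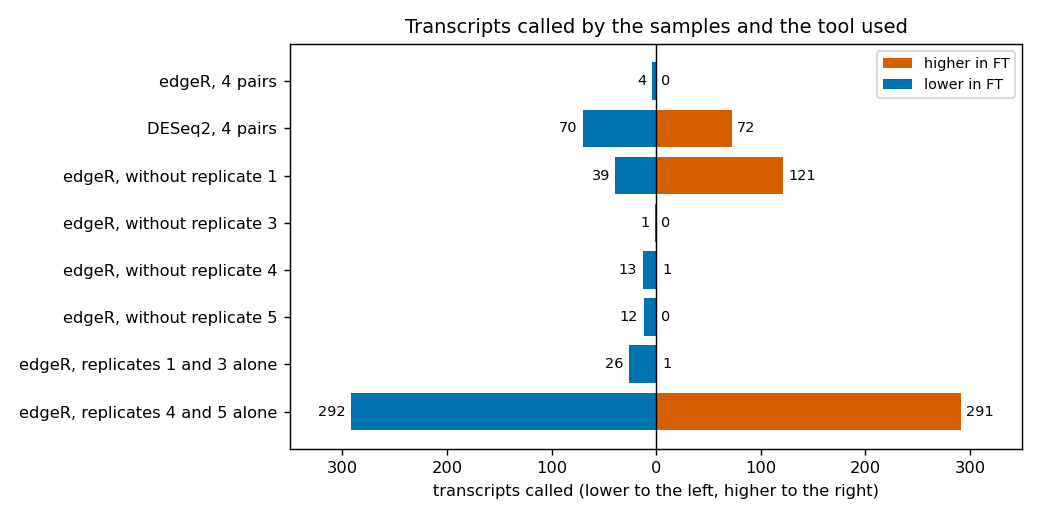
Number of transcripts called in the infralimbic cortex, lower in FT to the left and higher in FT to the right, for edgeR and DESeq2 on all 4 pairs and for edgeR on subsets of the pairs. The 4 pairs gave 4 calls with edgeR and 142 with DESeq2, and replicates 4 and 5 alone gave 583.

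The pairs themselves can be set side by side. Across the 13011 transcripts, the log2 ratios of FT to Sham had a Pearson r of 0.34 between pairs 1 and 5 and 0.31 between pairs 4 and 5, while the r of every other pair of pairs lay between -0.025 and 0.0085. These are descriptions over transcripts, which share libraries and are not independent. The median absolute log2 ratio was 0.74 in pair 1, 1.33 in pair 3, 0.40 in pair 4 and 0.37 in pair 5. Pair 3 also had a median ratio of 0.85 over all transcripts tested, against values from -0.03 to 0.02 in the other 3, so a ratio in pair 3 is read against that shift.

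The 6 named transcripts nearest to a call were Dpm3, Lama1 and Tomm6, with higher values in FT, and Tns1, Neurl4 and Soga1, with lower values. Every gene name used here comes from a list of transcripts that the study itself called in at least 2 brain regions, so a name is not independent of a response to FT. Of the 1811 named transcripts tested, 246 were higher at an unadjusted p under 0.05 (13.6%) and 164 lower (9.06%). The percentages over all transcripts tested, given above, are lower.

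Dpm3, the subunit that tethers dolichol-phosphate mannose synthase to the endoplasmic reticulum, came closest. It had 39.7, 25.3, 11.1 and 30.7 CPM in FT replicates 1, 3, 4 and 5 and 10.6, 9.77, 2.22 and 6.26 CPM in the Sham samples. Every FT sample was above every Sham sample, although the 9.77 CPM of Sham replicate 3 are 2 counts. The log2FC was 2.09 ± 0.37 (edgeR adjusted p = 0.112, DESeq2 adjusted p = 2.12e-05).

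Tomm6, a small subunit of the translocase that imports proteins through the outer mitochondrial membrane, had 199.99, 215, 138 and 147 CPM in FT and 54.5, 48.9, 52.5 and 65.1 CPM in Sham. The groups were well apart, and the Sham samples lay close together despite their unequal libraries. The log2FC was 1.61 ± 0.33 (edgeR adjusted p = 0.225, DESeq2 adjusted p = 9.2e-05). Groups that did not overlap were found for 173 transcripts higher in FT (1.33% of all tested) and 90 lower (0.692%). Among named transcripts the shares were 3.31% and 0.883%.

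Srp19, a protein of the signal recognition particle, had 158, 113, 245 and 182 CPM in FT and 56.6, 53.7, 69.1 and 70.7 CPM in Sham. It too showed no overlap, with a log2FC of 1.46 ± 0.32 (edgeR adjusted p = 0.263). Otub1, a deubiquitinating enzyme, was not called with edgeR. It had 805, 338, 747 and 959 CPM in FT and 240, 161, 171 and 310 CPM in Sham, so the lowest FT value, in the low-complexity FT replicate 3, still exceeded the highest Sham value. Its log2FC was 1.66 ± 0.39 (edgeR adjusted p = 0.343, DESeq2 adjusted p = 2.12e-05).

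Other transcripts higher in all 4 pairs with the lowest p were of mixed function. Lama1, a laminin chain of basement membranes, had 110 ± 31.6 CPM in FT and 36.5 ± 22.7 in Sham (SD, n = 4), with a log2FC of 1.64. Sdc4, a cell-surface heparan sulfate proteoglycan, and Gstm5, a glutathione transferase, had log2FC values of 1.41 and 1.55. Med26 of the Mediator complex, Commd3, Prr13 and Gsdma completed the 10, with log2FC values from 1.38 to 1.59. None of these 7 passed the edgeR threshold, and all 7 passed it with DESeq2. Sham replicate 3 had few counts for them, from 1 for Med26 to 9 for Gsdma. The pair 3 ratio of Med26, 0.34, lay below the 0.85 of all transcripts in that pair.

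Lower values in all 4 pairs were found for 4.95% of all transcripts tested and 5.96% of the named ones. The 10 named ones with the lowest p were mostly rare, and many were highest in Sham replicates 1 and 3. Soga1 had 0.45, 0.33, 0.19 and 0.16 CPM in FT and 5.70, 4.89, 0.56 and 1.80 CPM in Sham. The groups did not overlap, but the value in Sham replicate 3 is 1 count. Its log2FC was -3.03 ± 0.64 (edgeR adjusted p = 0.245). Tns1, which encodes the focal adhesion protein tensin, had a log2FC of -3.36 ± 0.68 with 52 counts in Sham replicate 1 and 1 count in Sham replicate 3. Its FT replicate 3 value of 2.63 CPM lay above the Sham values of replicates 4 and 5.

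Prkacb, a catalytic subunit of protein kinase A, was measured with more counts in the deep libraries. It had 4.60, 13.8, 9.18 and 8.04 CPM in FT and 9.50, 44.0, 25.7 and 22.1 CPM in Sham. FT was lower in each pair by a similar factor, while the groups overlapped because pair 1 was low and pair 3 high in both. The log2FC was -1.40 ± 0.35 (edgeR adjusted p = 0.373, DESeq2 adjusted p = 0.000845), and the ratios of the 4 pairs ran from -1.66 to -1.03.

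Cplx2, which encodes the complexin that clamps and promotes synaptic vesicle fusion, had a log2FC of -1.61 ± 0.38. Its level ranged from 3.41 CPM in FT replicate 4 to 264 CPM in Sham replicate 3, so the libraries of replicates 1 and 3 differed from those of 4 and 5 far more than FT differed from Sham. Neurl4 (log2FC -1.55), Ube2o, a ubiquitin-conjugating enzyme (-1.67), and Slc6a11, a GABA transporter of astrocytes (-2.02), were lower in every pair as well. Dyrk1b, Zhx2 and RGD1560871 had log2FC values from -2.87 to -2.10, with 1 or 2 counts each in Sham replicate 3.

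**Figure D3:**
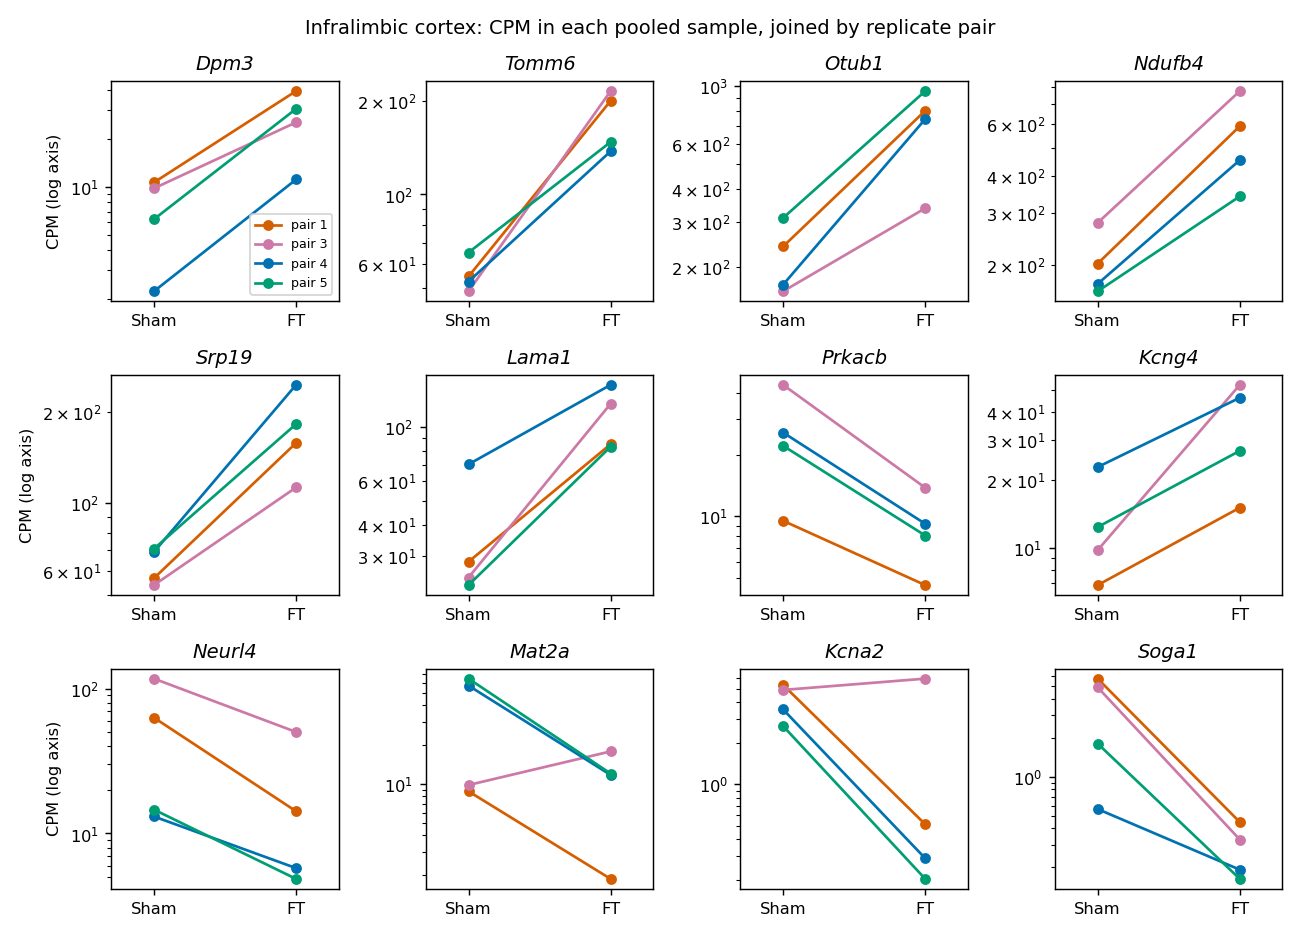
CPM (log axis) of 12 named transcripts in the infralimbic cortex, Sham on the left and FT on the right of each panel; a line joins the 2 pooled samples of a replicate pair. Dpm3, Tomm6, Otub1, Ndufb4, Srp19, Lama1 and Kcng4 are higher in FT in 4 of 4 pairs, Prkacb, Neurl4 and Soga1 lower in 4 of 4, and Mat2a and Kcna2 lower in every pair but the third replicate, whose Sham library has 2 counts and 1 count for them.

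Genes of serotonin signalling and other genes that the study discusses were read next. Htr1a, the receptor through which serotonin inhibits cortical and raphe neurons, was barely detected: it had 0, 5, 2 and 0 counts in FT replicates 1, 3, 4 and 5 and 6, 0, 6 and 18 counts in Sham. It fell under the minimum count of the edgeR fit in ILC and was not tested there. DESeq2 gave it a log2FC of -3.38 (DESeq2 unadjusted p = 0.048) with no adjusted p. In the comparison of ILC with the prelimbic cortex its log2FC differed by -1.96 ± 1.44 (edgeR unadjusted p = 0.196). It was the only member of the list of serotonin receptors, synthesis, uptake and breakdown that has a name in the sources used here.

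Mat2a, which makes the methyl donor S-adenosylmethionine, had 1.85, 17.7, 11.7 and 11.96 CPM in FT and 8.74, 9.77, 56.8 and 64.3 CPM in Sham. FT was lower in pairs 1, 4 and 5 and higher in pair 3, where Sham had 2 counts. The log2FC was -1.89 ± 0.45 (edgeR adjusted p = 0.343), and it was -2.36 with an adjusted p of 1.41e-09 in replicates 4 and 5 alone. Cds2, an enzyme of phosphatidylinositol synthesis, followed the same pattern with a log2FC of -2.67 ± 0.77 over the 4 pairs and -3.44 in replicates 4 and 5 alone. Its FT replicate 3 value of 50.5 CPM was the highest of all 8 samples, and without the pairing its log2FC was 0.42.

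Napb, a SNARE disassembly factor, had a log2FC of -1.27 ± 0.45 and Gabrb2, a GABA-A receptor subunit, of -1.45 ± 0.52, and both were lower in 3 of 4 pairs. Trim28, a co-repressor that silences retroelements, had 83.0, 67.9, 199 and 99.3 CPM in FT and 121, 29.3, 58.7 and 88.8 CPM in Sham. The groups overlapped, and its log2FC was 0.59 ± 0.40 (edgeR adjusted p = 0.832).

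Among functional lists with at least 4 transcripts tested, those of the respiratory chain, of mitochondrially encoded genes and of mitochondrial ribosomal proteins had the highest median log2FC. The median of the mitochondrially encoded genes, 0.74, ran from 0.17 to 1.31 with 1 replicate left out. It was 0.17 without replicate 3, 0.70 without replicate 1 and -0.29 with replicates 4 and 5 alone. Leaving out 1 replicate moved the medians of 28 of the 33 lists, cell type markers included, by over 1.5 times or changed their sign. The functional lists among the other 5 were the respiratory chain (0.82 to 0.96), the mitochondrial ribosomal proteins (0.75 to 0.84) and the steroid, growth factor and developmental receptors (-0.66 to -0.39). No member of any list was called with edgeR over the 4 pairs, so lists are given by their counts and medians beside those of all transcripts tested. Over all 13011 transcripts, 7059 had a positive log2FC (54.3%), the median log2FC was 0.05, and 1385 were higher in all 4 pairs (10.6%). Over the 1811 named transcripts the median was 0.23, with 341 higher in all 4 pairs (18.8%). Every list consists of named transcripts only, which the study had called in at least 2 regions. The lists were therefore in part selected for a response to FT, and neither set of values removes that selection, so a list's direction is given as a description.

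Of 33 nuclear-encoded subunits of the respiratory chain and ATP synthase, which carry out oxidative phosphorylation, 31 had a positive log2FC. Their median log2FC was 0.90, 18 had an unadjusted p under 0.05 in the higher direction and 0 in the lower, and 16 were higher in all 4 pairs. Their median ratios were 1.01, 1.504, 0.36 and 0.89 in pairs 1, 3, 4 and 5, and that of pair 4 is close to the 0.29 of all named transcripts in that pair. Ndufb4 of complex I had 590, 776, 454 and 342 CPM in FT and 203, 278, 173 and 164 CPM in Sham. All FT samples exceeded all Sham samples (log2FC 1.37 ± 0.36, edgeR adjusted p = 0.399, DESeq2 adjusted p = 2.12e-05). A second transcript named NDUFB4 was far less abundant. Reads could be split between the 2 if their sequences are alike, which was not tested. Uqcrc2, a core protein of complex III, was 1 of the 2 with a negative value (log2FC -0.17).

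Among 25 mitochondrial ribosomal proteins, which translate the transcripts of the mitochondrial genome, 23 had a positive log2FC, the median was 0.73 and 18 were higher in all 4 pairs. Their median ratios were 0.87, 0.98, 0.76 and 0.72 in pairs 1, 3, 4 and 5. The value of pair 3 is close to the 0.86 of all named transcripts in that pair, so the list stood above the other transcripts mainly in pairs 1, 4 and 5. Mrps14 had 197, 116, 292 and 220 CPM in FT and 40.5, 58.6, 152 and 88.0 CPM in Sham, with overlap between groups but a higher FT value in each pair (log2FC 1.40 ± 0.36). Mitochondrial import and chaperone genes had a median of 0.63, with 12 of 13 positive. Mdh2, the malate dehydrogenase of the tricarboxylic acid cycle, had a log2FC of 1.41 ± 0.39 in a list of energy enzymes whose median was 0.49.

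The 8 transcripts encoded by mitochondrial DNA differed in direction between pairs. Their median log2FC was 0.74, but the median ratio was 1.18 in pair 1, 2.41 in pair 3, -0.65 in pair 4 and 0.01 in pair 5. MT-CO3, a subunit of complex IV, had 17043, 35127, 5253 and 5177 CPM in FT and 7622, 7944, 12430 and 6006 CPM in Sham, so FT was above Sham in pairs 1 and 3 and below it in pairs 4 and 5. MT-ATP8 was higher in all 4 pairs (log2FC 1.71 ± 0.42, edgeR adjusted p = 0.373). The 26 cytosolic ribosomal proteins followed the same split, with median ratios of 0.56, 1.55, -0.91 and 0.03.

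**Figure D4:**
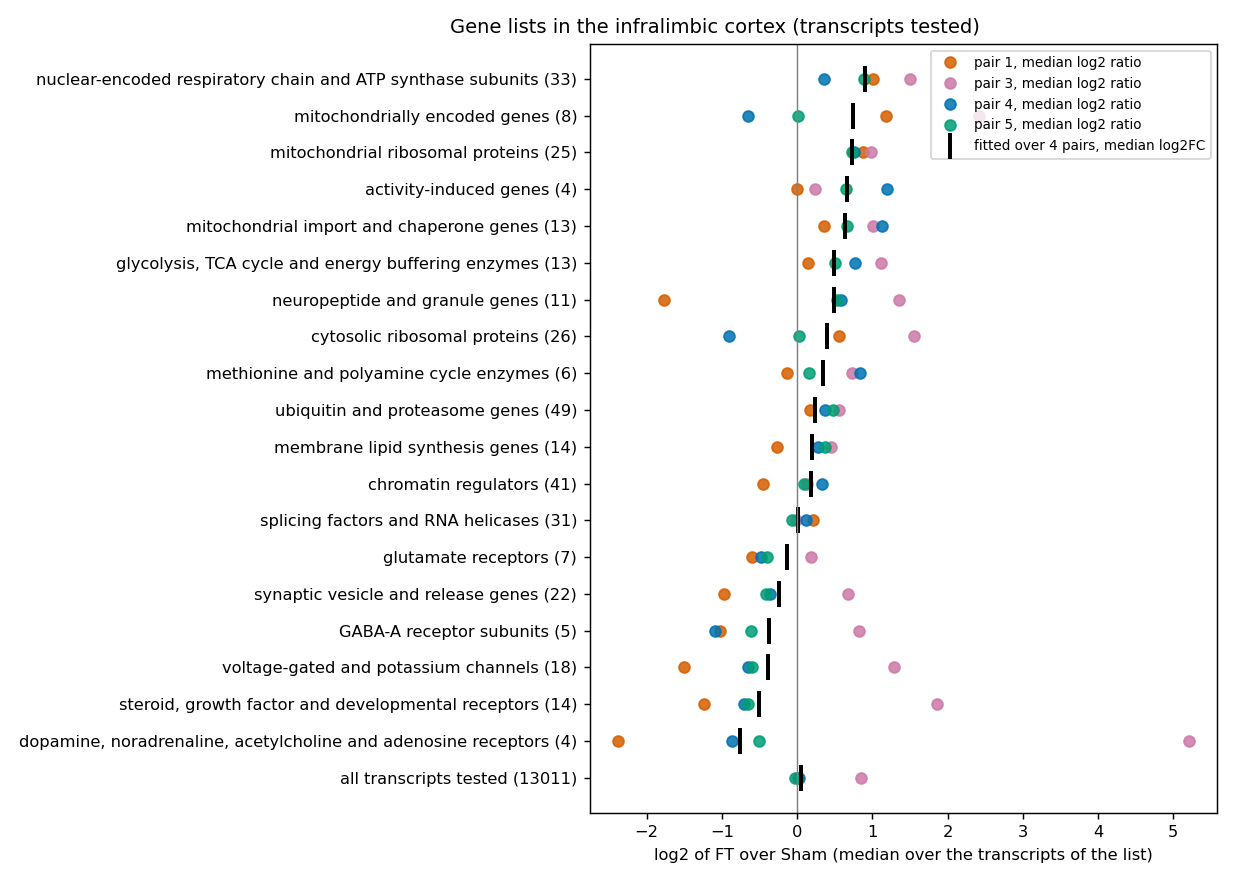
Median log2 of FT over Sham over the transcripts of each functional list with at least 4 tested members in the infralimbic cortex; coloured points are single replicate pairs, black bars the median log2FC fitted over 4 pairs, and numbers in brackets the transcripts tested. Nuclear-encoded respiratory chain genes (median 0.90) and mitochondrial ribosomal proteins (0.73) are above the median of all transcripts (bottom row) in each pair. The receptor, channel and vesicle lists are below it in pairs 1, 4 and 5, while pair 3, where all transcripts have a median of 0.85, is mixed.

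Lists of membrane excitability and synaptic transmission lay on the other side. Of 18 voltage-gated and potassium channel transcripts, 14 had a negative log2FC, with a median of -0.39, and 6 had an unadjusted p under 0.05 in the lower direction against 1 in the higher. Kcna2, a delayed-rectifier potassium channel of axons, had 0.51, 5.91, 0.29 and 0.20 CPM in FT and 5.32, 4.89, 3.52 and 2.66 CPM in Sham. FT was lower in pairs 1, 4 and 5, and FT replicate 3 was the highest of all 8 samples. The log2FC was -2.92 ± 0.65 (edgeR adjusted p = 0.263) and -3.63 in replicates 4 and 5 alone, with an adjusted p of 9.75e-07. Kcnj10, the inward rectifier of astrocytes, had a log2FC of -3.13 (edgeR adjusted p = 0.343). It was lower in FT in pairs 1, 4 and 5 and higher in pair 3, where Sham had 0 counts, and the groups overlapped. Kcng4, a modulatory potassium channel subunit, went the other way with 35.3 ± 17.4 CPM in FT and 13.0 ± 6.96 in Sham, and was higher in FT in all 4 pairs.

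All 5 GABA-A receptor subunits tested had a negative log2FC (median -0.37), as did 5 of 7 glutamate receptors (median -0.13) and 13 of 22 synaptic vesicle and release genes (median -0.25). In each of these lists the median ratio was below 0 in pairs 1, 4 and 5. In pair 3 it was 0.82, 0.19 and 0.68, against 0.85 for all transcripts in that pair. Sham replicate 3 had 0 counts for Gabrb2 and Grik3 and 1 to 3 for Gabrb1, Grm7 and Grid1. The pair 3 medians of the GABA-A and glutamate receptors therefore give no direction. Above the median of all transcripts in pair 3 were the channels, at 1.28, and the steroid, growth factor and developmental receptors, at 1.86. For the 4 dopamine, noradrenaline, acetylcholine and adenosine receptors tested, pair 3 gives no usable ratio. Sham replicate 3 had 0 counts for Chrm1, Adora2a and Drd2, so their ratios there are set by the prior count. Grik3, a kainate receptor subunit, had the lowest p among glutamate receptors (log2FC -2.32), and its Sham values ran from 0 to 16.7 CPM. Syp, the abundant vesicle protein synaptophysin, was 1 of the 9 vesicle and release genes with a positive log2FC. Its value was 0.73, with higher FT values in all 4 pairs. Among the 14 steroid, growth factor and developmental receptors, 9 were negative (median -0.50). Nr3c2, the mineralocorticoid receptor, had a log2FC of -1.86 and was lower in all 4 pairs.

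In replicates 4 and 5 alone, where 2.09% of all transcripts were called higher and 2.10% lower, the same lists can be counted by calls. Every list member has a name, and of the 1814 named transcripts in that fit 220 were called higher and 162 lower. The named transcripts are the closer background. Channels had 1 call higher and 7 lower of 19 tested, and synaptic vesicle genes 1 higher and 7 lower of 22. Respiratory chain subunits had 8 higher and 0 lower of 33, and mitochondrial ribosomal proteins 4 higher and 0 lower of 25. Cell type markers were called as well. Excitatory neuron markers had 3 higher and 1 lower of 8, and astrocyte markers 0 higher and 2 lower of 9. Of these, Kcnj10 is also among the channels. Oligodendrocyte markers had 0 calls of 13, and oligodendrocyte lineage markers 1 higher and 0 lower of 2. With 4 of 25, the mitochondrial ribosomal proteins were near the share of all named transcripts called higher. Without replicate 1 the lists had fewer calls. Channels had 1 higher and 3 lower of 18 tested, and vesicle genes 0 higher and 2 lower of 22. Respiratory chain subunits had 3 higher and 0 lower of 33, and mitochondrial ribosomal proteins 1 higher and 0 lower of 25. Over the 1812 named transcripts of that fit, 89 were called higher and 18 lower, and the mitochondrial ribosomal proteins were again near the share called higher.

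Regulatory lists were read in the same way. Of 49 ubiquitin and proteasome genes, 32 had a positive log2FC and the median was 0.24. UBB, a ubiquitin precursor gene, had 4591, 4326, 4504 and 11776 CPM in FT and 2299, 1104, 1438 and 4840 CPM in Sham, higher in each pair with overlap between the groups (log2FC 1.47 ± 0.57, edgeR adjusted p = 0.623). The 41 chromatin regulators had 24 positive values (median 0.19) and the 31 splicing factors and helicases 16 (median 0.02). Sirt3, the mitochondrial deacetylase, had a log2FC of 1.07 and Baz2a, a subunit of a nucleolar remodelling complex, of -1.61. Splicing factor U2af2 had a log2FC of -2.25 and was lower in all 4 pairs.

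Genes that respond to neuronal activity or to time of day were few. Of 4 activity-induced genes with a name all 4 had a positive log2FC (median 0.66). Fos had 24.0, 22.97, 30.3 and 39.6 CPM in FT and 33.2, 9.77, 15.99 and 25.0 CPM in Sham, overlapping between groups (log2FC 0.48 ± 0.36). Cirbp, a cold-inducible RNA-binding protein listed with circadian output genes, had 84.8, 71.5, 226 and 291 CPM in FT and 39.3, 58.6, 65.4 and 60.4 CPM in Sham. The FT samples all lay above the Sham samples, and those of replicates 4 and 5 most clearly (log2FC 1.44 ± 0.37, edgeR adjusted p = 0.399, DESeq2 adjusted p = 0.0595). The study's methods state that both groups were killed within the same late-morning window. The hour of each pool was not used here, and its part in this value was not tested.

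The summed levels of astrocyte and excitatory neuron markers moved with the library more than with FT. Summed over 9 astrocyte markers, the level was 2517, 15844, 719 and 795 CPM in FT replicates 1, 3, 4 and 5 and 3953, 4553, 1312 and 835 CPM in Sham. The most abundant of them, Apoe, had 10305 CPM in FT replicate 3, 3039 CPM in Sham replicate 1 and 100.4 to 184 CPM in the 4 libraries of replicates 4 and 5. The 8 excitatory neuron markers summed to 996, 2585, 515 and 585 CPM in FT and 2554, 1441, 344 and 461 CPM in Sham. The sums of both lists were thus high in the low-complexity libraries of both groups, as were Cplx2 and Neurl4. Not every member was. On the scale of all 196 libraries, the astrocyte marker Etnppl had 0 to 0.95 CPM in these libraries. In those of replicates 4 and 5 it had 8.06 to 12.6 CPM. The excitatory marker Hs3st2 had 13.1 to 25.1 CPM against 19.9 to 33.9 CPM.

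The 13 oligodendrocyte markers were steadier, at 388, 308, 495 and 551 CPM in FT and 279, 401, 638 and 504 CPM in Sham, with a median log2FC of 0.15. The 9 microglia markers summed to 53.8 to 87.0 CPM in FT and 46.2 to 78.2 CPM in Sham. Of the 2 red blood cell genes, Hbb had 208, 825, 61.7 and 58.0 CPM in FT replicates 1, 3, 4 and 5 and 52.6, 166, 78.8 and 45.2 CPM in Sham. FT replicates 4 and 5 lay within the Sham range, and Sham was the higher in pair 4. The median log2FC of these 2 genes was 1.10 (0.62 to 1.77 with 1 replicate left out), above that of each functional list named above, with median ratios of 2.30, 3.22, -0.59 and 0.45 in pairs 1, 3, 4 and 5. Striatal markers were at 109 to 189 CPM in FT and 72.3 to 202 CPM in Sham. The part of these markers in the results above was not tested.

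The last comparison asked whether the response to FT differed between the ILC and other cortical areas. The prelimbic cortex (PLC) lies just dorsal to the ILC, followed by the CGC, and the insular cortex (InsularC) lies laterally. The difference in log2FC between ILC and each area was tested with edgeR as a treatment by region term. No transcript passed an adjusted p of 0.1 against PLC (0 of 14096), CGC (0 of 14322) or InsularC (0 of 14213). By the study's methods, the pools of all regions came from the same set of animals in each group. Same-numbered pools of different regions may therefore share animals, and the fit above did not pair their treatment effects. A fit that did, with a treatment effect per replicate shared by both regions, gave 44 transcripts against CGC and 0 against PLC and InsularC. The result against CGC thus depends on this pairing. At an unadjusted p under 0.05 there were 293, 175 and 195 transcripts, or 2.08%, 1.22% and 1.37%. Fitted alone, PLC gave 0 DEGs of 13211, CGC 61 of 13125 and InsularC 0 of 13752, so a count of 4 in ILC beside 61 in CGC is not a tested difference.

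Side by side, Mat2a had a log2FC of -1.89 ± 0.45 in ILC, -1.65 ± 0.42 in PLC, -1.87 ± 0.26 in CGC and -1.98 ± 0.45 in InsularC. The ILC value lay within its standard error of each of the others. Dpm3 had 2.09 ± 0.37 in ILC, 1.16 ± 0.56 in PLC, 1.98 ± 0.33 in CGC and 1.40 ± 0.48 in InsularC. Gstm5 stood further apart, with 1.55 ± 0.34 in ILC and 0.31 to 0.36 in the other 3 areas, and the difference from CGC was 1.20 ± 0.40 (edgeR unadjusted p = 0.0111, adjusted p near 1). NUPR1, a stress-induced chromatin protein, differed by 1.80 ± 0.54 between ILC and CGC, and Hbb by 2.10 ± 0.59 between ILC and PLC. Neither passed the adjusted threshold.

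**Figure D5:**
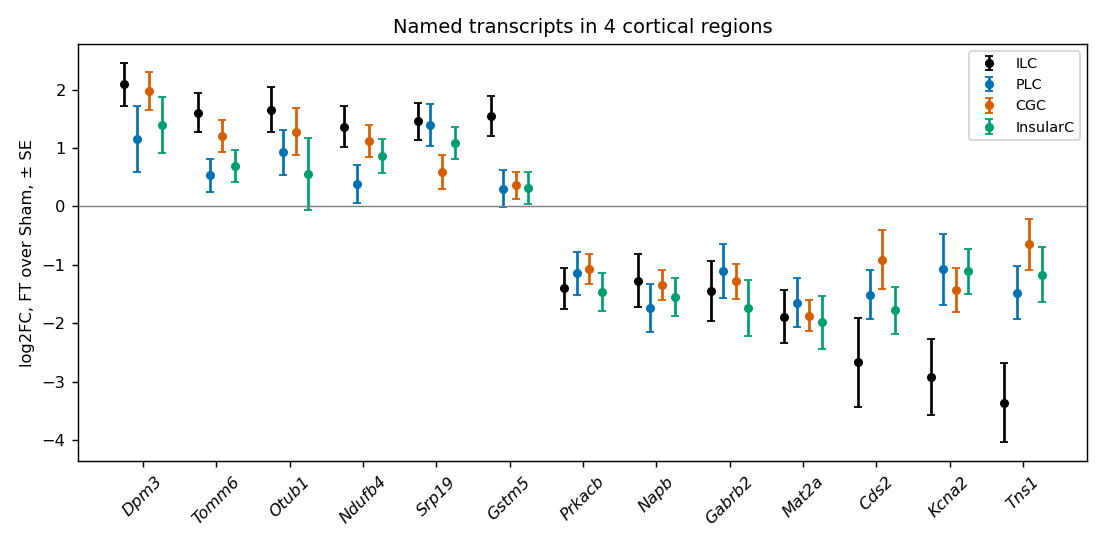
Fitted log2FC of FT over Sham with its standard error for 13 named transcripts in the infralimbic (ILC), prelimbic (PLC), cingulate (CGC) and insular (InsularC) cortex. Mat2a lies between -1.98 and -1.65 in all 4 areas, while Gstm5 is at 1.55 in ILC and at 0.31 to 0.36 in the other 3.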

How the data were processed

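The authors deposited raw counts per Ensembl transcript for 196 samples, 8 of them from ILC, with no normalization. The submitters' processing notes name FastQC, STAR, HTSeq and rn5; versions are not given in the sources used here. The kit was for stranded total RNA, whereas the labels give the molecule as polyA RNA. The 5 summary lines of each file were dropped. Gene names came from a supplementary table, which names 1844 of 29188 transcripts. The members and lists were chosen with earlier results of these data known.

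Counts were tested with edgeR 4.0.16 in R 4.3.3 (TMM factors, filterByExpr at a minimum count of 10 and a total of 15, quasi-likelihood test, replicate number as a block, Benjamini-Hochberg adjustment). DESeq2 1.42.0 was an alternative. CPM use TMM library sizes, and log2 ratios of pairs a prior count of 2. Lists are described by counts and medians. Genes named were the 10 higher and 10 lower with the lowest p that changed the same way in all 4 pairs, genes the study discusses, the lowest-p and most abundant members of each list, the 5 higher and 5 lower DESeq2 calls with the lowest p, and the 3 lowest-p transcripts of each cortical comparison. The CGC pair of replicate 1 was left out, judged to be the 2 CGC samples that the study removed as outliers. The lists also covered choroid plexus, thalamic, hypothalamic, vascular, monoamine, oligodendrocyte lineage, interneuron, methionine cycle, membrane lipid and neuropeptide genes.

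According to the supplementary methods, the treated and control pools with 1 number went through processing together. The deviations of same-numbered samples from their group means correlated at 0.186, 0.334, 0.581 and 0.640 for replicates 1, 3, 4 and 5. Those of differently numbered samples ran from -0.592 to 0.595, and FT replicate 3 correlated more with Sham replicate 1 (0.479), and FT replicate 4 with Sham replicate 5 (0.595), than with its own number. Without the block, edgeR called 0 transcripts, with 342 at an unadjusted p under 0.05. The steps were tested on simulated counts with 200 of 13011 transcripts changed by a log2FC of 2: edgeR called 153 of these and 25 unchanged ones, and DESeq2 158 and 39. In both, the unchanged ones made up a larger share of the calls than the adjusted p threshold of 0.1. For the comparison of ILC with PLC, with 200 of 14096 changed by the same amount, edgeR called 89 of these and 9 unchanged ones. The simulated counts were drawn for each transcript independently, without the differences in make-up between the libraries of a pair. They test the steps, and their rates of detection do not carry over to the real libraries. The depth of 543403 to 16730824 counts limits the precision for rare transcripts.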

Additional observations from a re-analysis of the deposited data

Results flagged for a closer look

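In 9 of 74 groups of 4 samples examined, 1 sample lay far from the other 3. The rule flags about 1 in 20 independent groups with a normal spread. These groups are readings of the same libraries for transcripts picked from these data, so that rate is no measure for the count. FT replicate 3 was the high sample for 6 transcripts: 2.63 CPM for Tns1 (others at most 0.319), 215 CPM for Cplx2 (at most 32.5), 5.25 CPM for RGD1560871 (at most 0.575), 6.24 CPM for Dyrk1b (at most 0.830), 5.91 CPM for Kcna2 (at most 0.511) and 50.5 CPM for Cds2 (at most 1.02). Sham replicate 1 was high for ENSRNOT00000071687 (641 CPM, others at most 58.6) and ENSRNOT00000074406 (378 CPM, others at most 29.3). Sham replicate 4 was high for Lama1 (70.4 CPM, others at most 28.3), against the direction of its log2FC. FT replicate 3 and Sham replicate 1 are both libraries with a large share of counts in 50 transcripts.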

How the results depend on the processing

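The 4 calls over 4 pairs (0 higher, 4 lower) became 142 with DESeq2 (72 higher, 70 lower), 0 with no replicate block, 239 with no low-count filter (69 higher, 170 lower), 27 with replicates 1 and 3 alone (1 higher, 26 lower) and 583 with replicates 4 and 5 alone (291 higher, 292 lower). Leaving out 1 replicate at a time gave 1 to 160 calls, 0 to 121 higher and 1 to 39 lower. A filter on the design matrix gave 8 calls (1 higher, 7 lower) and removal of the 25 transcripts above 1% of any library 7 (1 higher), and Dpm3 was the higher one in both. These 2 settings were chosen after seeing the data. Median-ratio size factors and an adjusted p of 0.05 gave 3 calls each. For the cortical comparisons, no low-count filter gave 14 transcripts against PLC, 41 against CGC and 13 against InsularC, a replicate block with shared treatment effects gave 44 against CGC, and leaving out 1 replicate gave 0 to 2, 0 to 5 and 0 to 5. Of 32 transcripts with test values, only Cds2 changed sign, to a log2FC of 0.42 with no replicate block. Of the 28 of these not called by edgeR over 4 pairs, 24 were called with DESeq2, 20 without replicate 1 and 26 with replicates 4 and 5 alone. The 28 include the 5 higher and 5 lower DESeq2 calls with the lowest p, and most of the rest were picked for a low edgeR p. These counts are therefore in part fixed by that choice. Of 31 list medians, 8 changed sign with replicates 1 and 3 alone, and of 33 (32 without replicate 5), 5 with no replicate block, 4 with replicates 4 and 5 alone and 0 to 3 under each other setting. The causes were not tested.

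The transcripts unnamed here, Sham replicate 3 at 543403 counts and the low-complexity libraries limit what ILC can show.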

Other observations

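Several gene groups were not described above. Of 11 neuropeptide and granule genes tested, 8 had a positive log2FC (median 0.48, or 0.07 to 0.32 with 1 replicate left out), but the median ratio was -1.77 in pair 1 and 0.53 to 1.36 in the other 3 pairs. The peptide genes Sst and Cck showed this: Sst had 236 CPM in Sham replicate 1 and 483 CPM in FT replicate 3, against 16.2 to 102.6 CPM in the other 6 samples. Vip, of another interneuron class, was steadier at 35.2 to 57.2 CPM in FT and 14.7 to 46.5 CPM in Sham (log2FC 0.48 ± 0.35). The 4 interneuron markers had a median of 0.43, which ran from 0.18 to 0.56 with 1 replicate left out and was -0.02 with replicates 4 and 5 alone.

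The 6 methionine and polyamine cycle enzymes had 5 positive values (median 0.34), with Mat2a the exception. The 14 membrane lipid synthesis genes were split 7 to 7, and Lpin2, a phosphatidate phosphatase, had 448 and 424 CPM in FT replicates 4 and 5 and 81.9 and 125 CPM in Sham. In pairs 1 and 3 its values were 63.7 and 44.0 CPM in FT and 40.3 and 44.0 CPM in Sham, and its log2FC was 1.32 ± 0.42 (edgeR adjusted p = 0.483). Of the 8 vascular markers 6 were positive (median 0.26, or 0.17 to 0.61 with 1 replicate left out). The median was 0.26 for 2 choroid plexus genes (0.04 without replicate 5 and 0.57 without replicate 3), 0.34 for 2 thalamic genes (-0.0044 without replicate 1) and 0.50 for 2 oligodendrocyte lineage genes (0.19 without replicate 4 and 1.06 without replicate 1). Single members tested were Gal among hypothalamic peptides (log2FC 1.48) and Th among monoamine markers (0.28).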
